A study of Sus scrofa with 6 samples.

Results

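Transforming growth factor beta (TGF-beta) transcripts were measured in the abdominal aorta of pigs fed 2 diets. The set held 10 of the 30477 genes in the deposited table, taken by gene symbol: the ligands TGFB1, TGFB2 and TGFB3, the receptors TGFBR1, TGFBR2 and TGFBR3, the signal transducers SMAD2 and SMAD3, the inhibitor SMAD7, and TGFBI, a matrix protein named for its induction by the pathway. All 10 symbols were found once each, and all 10 genes passed the filter of a mean of at least 0.1 FPKM.

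The samples came from male Wuzhishan miniature pigs, labelled as 3 to 4 months old, although the methods give an older age at acquisition. The NC group ate normal chow and the HFCF group ate a diet high in fat, cholesterol and fructose, in which shortening, egg yolk, cholesterol and fructose were added to the chow. Both groups were fed for 6 months. Total RNA of the abdominal aorta was sequenced from 3 pigs per group with 1 library per pig, and the comparison asked how the aortic transcriptome of pigs on the atherogenic diet differed from that of pigs on chow.

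TGF-beta is secreted in a latent form, bound to its own propeptide and to latent TGF-beta binding proteins that anchor it in the matrix, and integrins and proteases release it. The free ligand binds the type II receptor TGFBR2, which phosphorylates the type I receptor TGFBR1, which in turn phosphorylates SMAD2 and SMAD3, and these enter the nucleus with SMAD4. In the artery wall the pathway is known for its role in smooth muscle contractile identity, in matrix synthesis and in restraint of inflammation.

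Levels were given as FPKM, fragments per kilobase of exon scaled to the size of the library, which allows genes of different length to be compared within a library. Fold changes were differences of mean log2(FPKM + 0.1), HFCF against NC, from limma, a linear model fitted over all 15384 genes that passed the filter, and a gene was called where its Benjamini-Hochberg adjusted p was under 0.05. The smooth muscle markers summed to 15225 to 21459 FPKM in the NC pigs and 7703 to 12446 FPKM in the HFCF pigs, so the labelled tissue carried its defining transcripts in every library. Macrophage markers summed to 57.5 to 69.2 FPKM in the NC pigs and 808 to 2052 FPKM in the HFCF pigs. Of the other marker lists, 3 of 7 T cell, 1 of 5 B and plasma cell, 1 of 3 neutrophil and 1 of 7 fibroblast genes were called higher. Over all tested genes 22.8% were called higher, above the 20% of the B and plasma cell list and the 14.3% of the fibroblast list. None of the 6 adipocyte genes was called by limma, beside 28.9% of all tested genes, and none had an unadjusted p under 0.05. Their sum was 190, 297 and 37.6 FPKM in the NC pigs and 88.5 to 133 FPKM in the HFCF pigs, so that NC pig 3, the lowest of its group for TGFB3, stood apart from the other NC pigs, and the part of these genes in that value was not tested. Red blood cell markers summed to 2897 FPKM in HFCF pig 1 and to 22.0 to 179 FPKM in the other 5 pigs. Over all tested genes the log2 fold changes had a median of 0.32 as deposited. Median-ratio scaling brought that median to 0.02, rescaling to TPM to 0.09 and quantile normalization to -0.07, so that a gene at 0.32 moved with the bulk of the transcriptome.

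By this test 3 of the 10 genes were called: TGFB3 fell, and SMAD2 and TGFBR2 rose. These 30.0% stand beside 28.9% of all tested genes, so the share called was that of the transcriptome as a whole. Higher calls were made for 2 genes against a background of 22.8% and lower calls for 1 gene against 6.16%. The values of the groups did not overlap in 4 of the 10 genes, TGFB2, TGFB3, TGFBR2 and SMAD2, beside 48.2% of all tested genes. They were higher in 3 of the genes and lower in 1, against 36.1% and 12.1% of all genes. The thresholds of the study were also applied, a fold change over 2 or under 0.5 with p below 0.05. Here the fold was the ratio of group means and p the unadjusted limma p, so these calls need not be those of the study. By this rule SMAD2 was higher and TGFB3 lower, 2 of 10 genes beside 25.5% of all tested genes (20.7% higher and 4.82% lower). The 10 log2 fold changes had a median of 0.31, close to that of all genes.

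**Figure D1:**
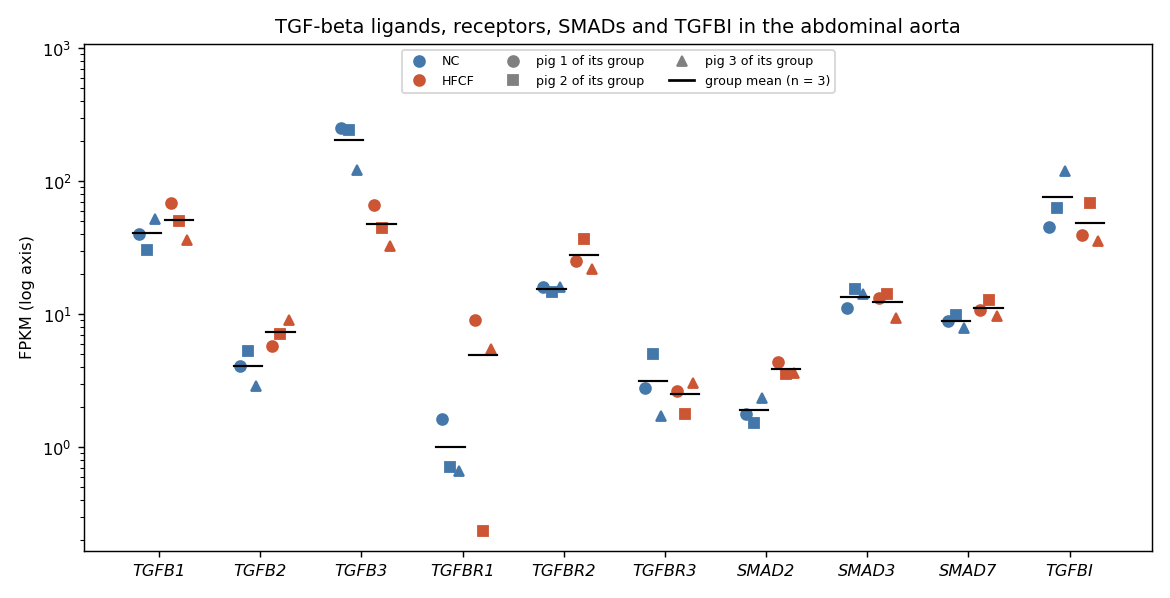
FPKM (log axis) of the 10 genes in each of the 6 pigs, NC in blue and HFCF in orange, with the marker shape giving the pig's number within its group and the bar the group mean (n = 3). TGFB3 was lower in all 3 HFCF pigs, TGFB2, TGFBR2 and SMAD2 were higher in all 3, and TGFBR1 was spread from 0.235 to 9.09 FPKM within the HFCF group.

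TGFB3, the third ligand isoform, was the most abundant of the 10 transcripts in chow-fed aorta and showed the lowest p of the set. TGFB3 (ENSSSCG00000002385) stood at 253, 242 and 121 FPKM in NC pigs 1 to 3 and at 66.6, 44.3 and 32.6 FPKM in HFCF pigs 1 to 3. NC pig 3 was the lowest of its group, yet it remained above all HFCF pigs, and the groups did not overlap. The mean fell from 205 ± 73.0 to 47.8 ± 17.2 FPKM (SD, n = 3 each), 4.29-fold lower. The log2 fold change was -2.09 (SE 0.36, 95% interval -2.94 to -1.24) with an adjusted p of 0.00741 from limma. With the median over all genes subtracted it was -2.41. TGFB3 was called lower under all 15 alternative settings, with log2 fold changes from -2.43 to -1.84.

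Between the groups, the fall of TGFB3 went with lower smooth muscle markers. Of the 8 genes in that list 5 were called lower, beside 6.16% of all tested genes, and none higher, and in bulk tissue fewer cells of a type and less RNA per cell cannot be told apart. Expressed per unit of summed smooth muscle marker FPKM in the same pig, a ratio added after seeing the data, TGFB3 stood at 0.0118, 0.0139 and 0.00797 in the NC pigs and at 0.00864, 0.00475 and 0.00262 in the HFCF pigs. On that scale HFCF pig 1 lay above NC pig 3, so the groups overlapped. The mean log2 difference was -1.20, with p = 0.2 in an exact two-sided permutation test, which cannot go below 0.1 with 3 pigs per group. The marker sums of NC pigs 1 to 3 were 21459, 17384 and 15225 FPKM, ranking these pigs as TGFB3 did. Those of HFCF pigs 1 to 3 were 7703, 9326 and 12446 FPKM, the reverse of their TGFB3 order. The part of the smooth muscle markers in the fall of TGFB3 was not tested further.

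TGFB1, the isoform released by platelets, macrophages and many other cells, showed no detectable difference between the diets. TGFB1 (ENSSSCG00000003017) stood at 40.4, 30.5 and 52.1 FPKM in the NC pigs and at 68.1, 50.0 and 36.4 FPKM in the HFCF pigs. HFCF pig 3 lay below NC pigs 1 and 3, so the groups overlapped widely. The log2 fold change was 0.32 (SE 0.28, 95% interval -0.35 to 0.98) with an adjusted p of 0.432 from limma, which leaves room for a change of nearly 1 log2 unit upwards. All 10 macrophage markers were called higher in the same libraries, beside 22.8% of all tested genes. The highest TGFB1 value was in HFCF pig 1, whose macrophage markers summed to 2052 FPKM, whereas those of HFCF pigs 2 and 3 summed to 896 and 808 FPKM. NC pig 3, with a macrophage sum of 69.2 FPKM, nevertheless lay above HFCF pigs 2 and 3 in TGFB1. HFCF pig 1 also had the highest red blood cell marker sum, 2897 FPKM. The part of macrophage or blood transcripts in the TGFB1 levels was not tested.

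TGFB2, the isoform that depends on the co-receptor betaglycan for efficient receptor binding, was the least abundant ligand. TGFB2 (ENSSSCG00000010816) stood at 4.11, 5.28 and 2.89 FPKM in the NC pigs and at 5.79, 7.11 and 9.11 FPKM in the HFCF pigs. All HFCF pigs lay above all NC pigs, although HFCF pig 1 exceeded NC pig 2 by little. The mean was 4.09 ± 1.19 FPKM on chow and 7.34 ± 1.67 FPKM on the HFCF diet (SD, n = 3 each). The log2 fold change of 0.84 (SE 0.27, 95% interval 0.20 to 1.49) had an adjusted p of 0.0571 from limma and missed the threshold, which it passed under 1 of 15 alternatives at 0.0499.

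The shares of the 3 ligands in their summed FPKM separated the 2 diet groups without overlap. The 3 ligands summed to 297.5, 277.5 and 176.2 FPKM in the NC pigs and to 140.5, 101.3 and 78.1 FPKM in the HFCF pigs. TGFB3 made up 85.0, 87.1 and 68.8% of that sum in the NC pigs against 47.4, 43.7 and 41.8% in the HFCF pigs. TGFB3 was thus the largest share in every NC pig, while TGFB1 and TGFB3 were close to each other in every HFCF pig. TGFB1 accounted for 18.0 ± 10.05% of ligand FPKM in the NC group and 48.1 ± 1.41% in the HFCF group, and TGFB2 for 1.64 ± 0.26% and 7.60 ± 3.80% (SD, n = 3 each). The ratio of TGFB1 to TGFB2 plus TGFB3 was 0.157, 0.124 and 0.419 in the NC pigs against 0.942, 0.973 and 0.871 in the HFCF pigs. This ratio, which does not depend on how a library is scaled, was higher in all HFCF pigs by a mean of 2.21 on the log2 scale. Its exact two-sided permutation p was 0.1, the smallest that 3 pigs against 3 allow, and 0.25 after Benjamini-Hochberg adjustment over the 5 ratios tested. TGFB3 is part of this ratio and of the shares, so neither is independent of its fall.

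**Figure D2:**
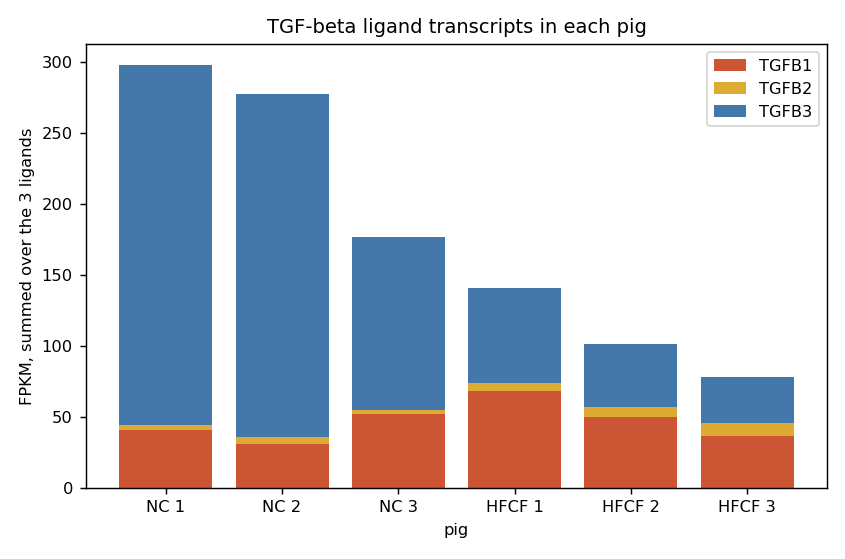
Stacked bars of TGFB1, TGFB2 and TGFB3 in FPKM for each pig. The sum ran from 176.2 to 297.5 FPKM in the NC pigs and from 78.1 to 140.5 FPKM in the HFCF pigs, the TGFB3 segment was the largest in every NC pig, and the TGFB1 segment stayed between 30.5 and 68.1 FPKM in all pigs.

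Among the receptors, TGFBR2 was higher in the HFCF group. TGFBR2 (ENSSSCG00000011226), which binds the ligand and activates the type I receptor, stood at 15.9, 14.7 and 16.0 FPKM in the NC pigs and at 25.2, 36.7 and 22.0 FPKM in the HFCF pigs. The NC pigs lay close together, every HFCF pig lay above them, and HFCF pig 2 was the highest. The means were 15.5 ± 0.74 and 27.9 ± 7.77 FPKM (SD, n = 3 each), a ratio of 1.80, with a log2 fold change of 0.81 (SE 0.21, 95% interval 0.32 to 1.30) and an adjusted p of 0.0272 from limma. Relative to the median of all genes the log2 difference was 0.49. The call was lost under the 3 rescalings, with log2 fold changes of 0.48 to 0.66 and adjusted p of 0.0612 to 0.130 (limma). It was also lost without NC pig 1 (0.0792), NC pig 2 (0.0803), NC pig 3 (0.0594) or HFCF pig 2 (0.0560), while the direction held under all 15 alternatives.

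TGFBR1, the kinase also known as ALK5 that phosphorylates SMAD2 and SMAD3, had the largest standard error of the 10 genes. TGFBR1 (ENSSSCG00000005382) stood at 1.64, 0.713 and 0.664 FPKM in the NC pigs and at 9.09, 0.235 and 5.45 FPKM in the HFCF pigs. HFCF pigs 1 and 3 lay above every NC pig, whereas HFCF pig 2 was the lowest of all 6. With all pigs the log2 fold change was 1.33 (SE 1.17, 95% interval -1.43 to 4.08) with an adjusted p of 0.426 from limma, so neither a rise nor a fall was resolved. Without HFCF pig 2 the log2 fold change was 2.80 with an adjusted p of 0.0141 (limma), so the value of that pig decides the call. Of 11121 genes with a mean of at least 1 FPKM, 32 stood in HFCF pig 2 more than 10-fold below both other HFCF pigs, TGFBR1 among them, and such genes numbered 16 to 27 in the other 5 pigs.

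TGFBR3, or betaglycan, the co-receptor that presents TGF-beta to TGFBR2, was low and did not separate the diets. TGFBR3 (ENSSSCG00000006911) stood at 2.79, 5.001 and 1.72 FPKM in the NC pigs and at 2.67, 1.79 and 3.05 FPKM in the HFCF pigs. NC pig 2 was the highest and NC pig 3 the lowest, with all HFCF pigs between them. The log2 fold change was -0.24 (SE 0.40, 95% interval -1.19 to 0.71, limma adjusted p 0.690), and it turned to 0.15 without NC pig 2.

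The ratio of TGFBR1 to TGFBR2 was 0.103, 0.0485 and 0.0414 in the NC pigs against 0.361, 0.0064 and 0.248 in the HFCF pigs. In FPKM, which accounts for transcript length, the type II receptor transcript was the more abundant in all 6 pigs. The groups overlapped because of HFCF pig 2, and the log2 difference of 0.49 had p = 0.9 in an exact two-sided permutation test. Leaving out 1 pig at a time moved that difference from -0.57 without HFCF pig 1 to 2.34 without HFCF pig 2.

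**Figure D3:**
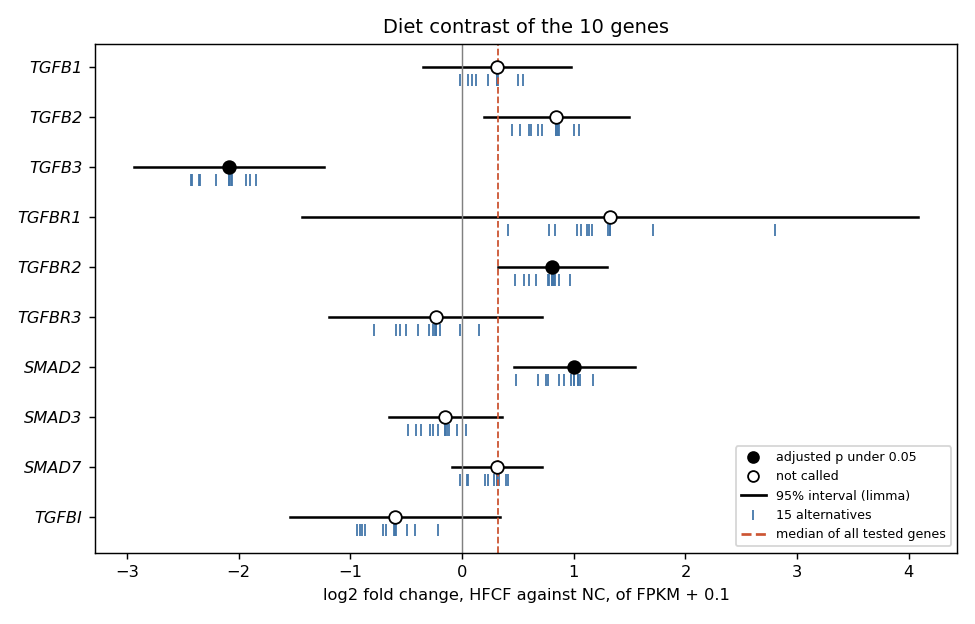
Log2 fold change of FPKM + 0.1, HFCF against NC, for the 10 genes, with the 95% limma interval as a line, filled circles for adjusted p under 0.05, blue ticks for 15 alternative settings and a dashed line at the median of all tested genes (0.32). The interval of TGFB3 lies wholly below 0 and that of TGFBR1 runs from -1.43 to 4.08, while the ticks of SMAD2 and TGFBR2 stay above 0.

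Of the transducers, SMAD2 rose, and no change of SMAD3 was detected. SMAD2 (ENSSSCG00000004505) stood at 1.78, 1.52 and 2.36 FPKM in the NC pigs and at 4.34, 3.54 and 3.64 FPKM in the HFCF pigs. The lowest HFCF pig was well above the highest NC pig. The means were 1.89 ± 0.43 and 3.84 ± 0.44 FPKM (SD, n = 3 each), a ratio of 2.03, with a log2 fold change of 1.004 (SE 0.23, 95% interval 0.46 to 1.55) and an adjusted p of 0.0188 from limma. Relative to the median of all genes the log2 difference was 0.68. The direction held under all 15 alternatives, but the call was lost under the 3 rescalings, with log2 fold changes of 0.48 to 0.77 and adjusted p of 0.0585 to 0.155 (limma), and without NC pig 1 (0.0636) or NC pig 2 (0.0594).

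SMAD3 (ENSSSCG00000004952), the transducer that itself binds DNA, stood at 11.1, 15.4 and 14.1 FPKM in the NC pigs and at 13.2, 14.2 and 9.36 FPKM in the HFCF pigs. The groups overlapped, with HFCF pig 3 the lowest of all. Its log2 fold change was -0.15 (SE 0.21, 95% interval -0.65 to 0.36, limma adjusted p 0.633), and it turned to 0.03 without HFCF pig 3. SMAD3 exceeded SMAD2 in every pig, by a ratio of 6.24, 10.1 and 5.96 in the NC pigs and of 3.05, 4.01 and 2.57 in the HFCF pigs. The ratio was lower in all HFCF pigs than in any NC pig, with a log2 difference of -1.19. Its exact two-sided permutation p was 0.1, the smallest possible, and 0.25 after adjustment over the 5 ratios.

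SMAD7 is the inhibitory SMAD that the pathway itself induces and that recruits ubiquitin ligases to the receptor. SMAD7 (ENSSSCG00000004507) stood at 8.87, 9.84 and 7.93 FPKM in the NC pigs and at 10.8, 12.9 and 9.65 FPKM in the HFCF pigs. The groups touched only in that NC pig 2 lay above HFCF pig 3. The log2 fold change of 0.31 (SE 0.17, 95% interval -0.09 to 0.72, limma adjusted p 0.211) was close to the median of all genes, and it was -0.02 after median-ratio scaling. The ratio of SMAD7 to SMAD2 plus SMAD3 was 0.689, 0.582 and 0.482 in the NC pigs against 0.612, 0.724 and 0.742 in the HFCF pigs, overlapping between the groups, with a log2 difference of 0.26 and an exact two-sided permutation p of 0.2.

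TGFBI, a secreted protein that links collagen and integrins, overlapped with TGFB1 in level in both groups and varied widely among the chow-fed pigs. TGFBI (ENSSSCG00000014316) stood at 45.4, 62.7 and 120 FPKM in the NC pigs and at 39.6, 69.2 and 35.5 FPKM in the HFCF pigs. NC pig 3 was the highest of all 6, and HFCF pig 2 lay above NC pigs 1 and 2. The log2 fold change was -0.60 (SE 0.40, 95% interval -1.54 to 0.34, limma adjusted p 0.290) and was negative under all 15 alternatives without passing the threshold in any. Per unit of summed ligand FPKM, TGFBI stood at 0.153, 0.226 and 0.682 in the NC pigs and at 0.282, 0.683 and 0.455 in the HFCF pigs, a log2 difference of 0.63 with an exact two-sided permutation p of 0.4.

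The order of the transcript levels, in FPKM, differed between the groups mainly through TGFB3. In the NC group TGFB3 led, its lowest pig above the highest value of TGFBI, and TGFBI and TGFB1 followed with overlapping ranges. TGFBR2 and SMAD3 overlapped at means of 15.5 and 13.5 FPKM, SMAD7 followed at 8.88 FPKM, and TGFB2, TGFBR3, SMAD2 and TGFBR1 formed a low group in which each overlapped with the next. In the HFCF group TGFB1, TGFBI and TGFB3 had means of 51.5, 48.1 and 47.8 FPKM and could not be ranked. The range of TGFBR2, up to 36.7 FPKM, reached into those of TGFB1, TGFBI and TGFB3. SMAD3 and SMAD7 overlapped below them at 12.3 and 11.1 FPKM. By their means TGFB2, TGFBR1, SMAD2 and TGFBR3 followed, with TGFBR3 the lowest at 2.50 FPKM. The ranges of TGFB2, SMAD2 and TGFBR3 did not overlap with each other, and the range of TGFBR1, 0.235 to 9.09 FPKM, spanned those of SMAD2 and TGFBR3 and reached into that of TGFB2.

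Genes whose profile over the 6 pigs was most like that of a called gene were ranked by the root-mean-square difference of log2(FPKM + 0.1), each centred on its mean, among 9582 genes. For TGFB3 these were FASN (0.168), the fatty acid synthase, IDI1 (0.228), an enzyme of isoprenoid and cholesterol synthesis, and GPRC5A (0.263). FASN stood at 64.0, 59.2 and 25.4 FPKM in the NC pigs and at 14.0, 11.96 and 9.26 FPKM in the HFCF pigs, the order of the pigs being that of TGFB3. For SMAD2 they were FBXO40 (0.0659), PPP1R18 (0.0662) and TMEM243 (0.0716), and for TGFBR2 they were FDXR (0.0982), DPM1 (0.103) and TMEM87A (0.108).

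Beyond the 10 genes, 7 lists of pathway genes held 96 genes, of which 95 were found by symbol and 91 were tested. Of these, 13 were called higher and 13 lower, 28.6% beside 28.9% of all tested genes, with a median log2 fold change of 0.01. Higher and lower calls were thus equal in number, whereas over all tested genes 22.8% were called higher and 6.16% lower, with a median of 0.32. The balance of directions depended on the scaling: 5 higher and 16 lower after median-ratio scaling or quantile normalization, and 6 higher and 15 lower after rescaling to TPM. All 26 called genes kept their sign under every alternative, and 6 of them, LRRC32, ACVRL1, CREBBP, SKIL, GDF6 and ADAM12, were called under every alternative.

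**Figure D4:**
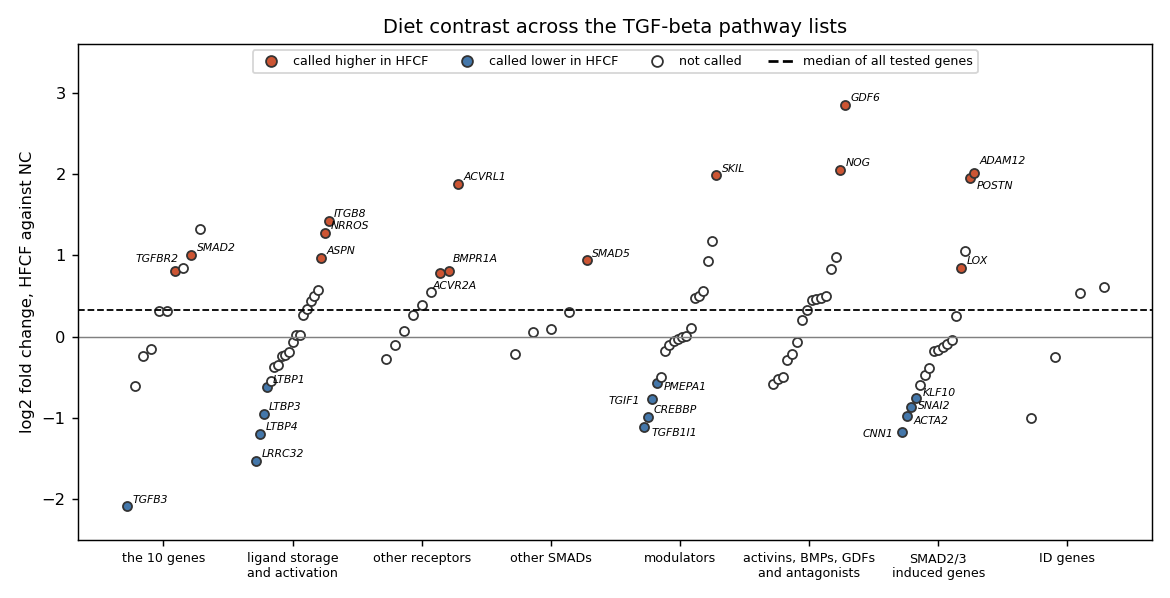
Log2 fold change, HFCF against NC, of tested genes in the 10-gene set and the 7 pathway lists, one column per list with genes sorted by value, orange and blue circles for genes called higher and lower, and a dashed line at the median of all tested genes (0.32). The called genes run from TGFB3 at -2.09 to GDF6 at 2.85, and calls in both directions occur in the storage, modulator and induced-gene lists.

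The list of genes for ligand storage and activation held 21 tested genes, of which 4 were called lower and 3 higher. These 33.3% stand beside 28.9% of all tested genes (6.16% lower and 22.8% higher). The latent TGF-beta binding proteins LTBP1, LTBP3 and LTBP4, which tether the latent complex to the matrix, and LRRC32 (GARP), which holds it at the cell surface, were the 4 lower genes. LRRC32 stood at 37.0, 24.3 and 36.4 FPKM in the NC pigs and at 10.8, 9.62 and 12.9 FPKM in the HFCF pigs, a clear separation, with a log2 fold change of -1.53 (SE 0.21, limma adjusted p 0.00369). LTBP4, the most abundant of the binding proteins in the NC group, stood at 320.1, 320.0 and 177 FPKM in the NC pigs and at 96.7, 110 and 140 FPKM in the HFCF pigs, with a log2 fold change of -1.20 (limma adjusted p 0.0184). LTBP3 stood at 166, 139 and 184 FPKM in the NC pigs and at 59.9, 107 and 92.0 FPKM in the HFCF pigs, with a log2 fold change of -0.95 (limma adjusted p 0.0262). No value of these 3 genes overlapped between the groups. LTBP1, named after its values were seen, had a log2 fold change of -0.62 (limma adjusted p 0.0282), whereas LTBP2, which does not bind latent TGF-beta, had 0.02 (limma adjusted p 0.967).

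The 3 higher genes of that list were ITGB8, NRROS and ASPN, the last 2 named after their values were seen. ITGB8, the beta chain of an integrin that activates latent TGF-beta, was scarce at 0.223, 0.174 and 0.199 FPKM in the NC pigs and 0.751, 1.03 and 0.438 FPKM in the HFCF pigs, with a log2 fold change of 1.43 (SE 0.37, limma adjusted p 0.0281). Its partner ITGAV did not separate the groups, at 4.92, 4.39 and 2.99 FPKM in the NC pigs and 8.86, 2.05 and 8.88 FPKM in the HFCF pigs, with HFCF pig 2 the lowest of all as for TGFBR1. Without that pig ITGAV was called higher (limma adjusted p 0.0350). NRROS, which anchors latent TGF-beta on myeloid cells, stood at 4.75, 4.64 and 2.58 FPKM in the NC pigs and at 15.5, 7.12 and 7.72 FPKM in the HFCF pigs (log2 fold change 1.28, limma adjusted p 0.0389). It was highest in the pig with the highest macrophage marker sum, but the order of the other pigs within each group differed. NC pig 3 had the highest macrophage sum of its group and the lowest NRROS, and HFCF pig 2 exceeded HFCF pig 3 in that sum but not in NRROS. ASPN, a small leucine-rich proteoglycan that binds TGF-beta, had a log2 fold change of 0.97 (limma adjusted p 0.0309), and BGN, the most abundant gene of the list, had -0.23 (adjusted p 0.570). Under the 3 rescalings NRROS and ASPN were not called, with adjusted p of 0.0528 to 0.112 (limma), and ITGB8 was called only after rescaling to TPM (0.0489), not by median ratios (0.0534) or quantiles (0.117). The calls of the list fell from 7 to 1, LRRC32, without NC pig 1, to 3 without NC pig 2, and to 4 without any one of the HFCF pigs. Without HFCF pig 2 those 4 included ITGAV, which was not among the 7. Macrophage and smooth muscle markers moved with the diet in the same libraries, and their part in these differences was not tested.

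**Figure D5:**
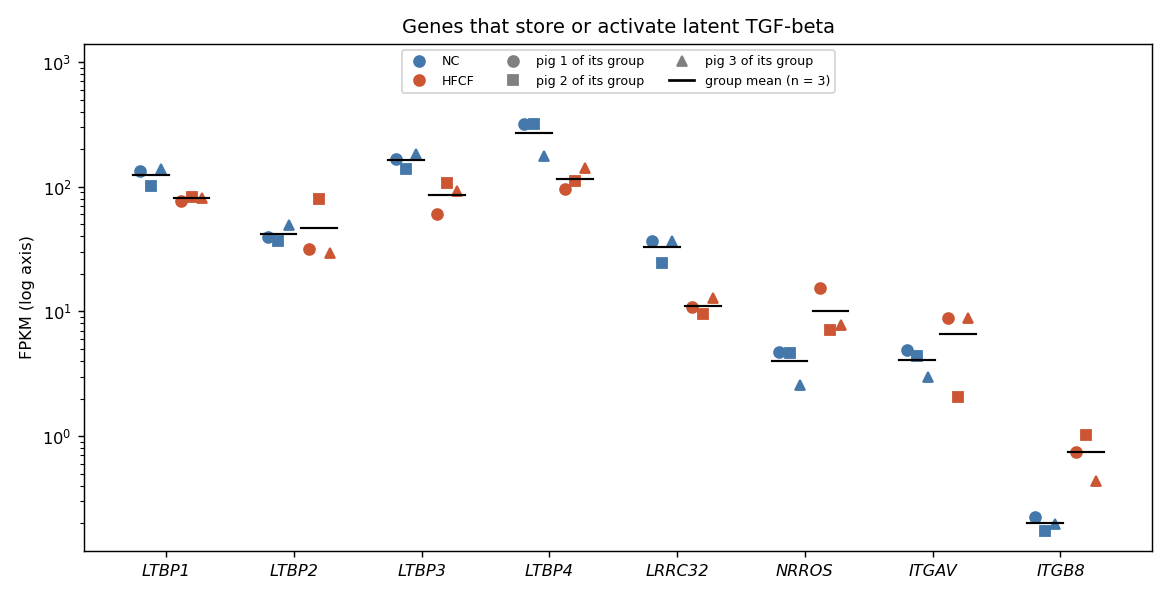
FPKM (log axis) of 8 genes that store or activate latent TGF-beta in each pig, NC in blue and HFCF in orange, with marker shapes for pig numbers and bars for group means (n = 3). LTBP1, LTBP3, LTBP4 and LRRC32 were lower in all HFCF pigs, NRROS and ITGB8 were higher in all HFCF pigs, and LTBP2 and ITGAV overlapped.

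Of the 9 other receptors tested, 3 were called higher and none lower, 33.3% beside 28.9% of all tested genes (22.8% higher and 6.16% lower). ACVRL1, the type I receptor ALK1 of endothelial cells, stood at 3.90, 5.50 and 2.33 FPKM in the NC pigs and at 18.3, 16.6 and 8.71 FPKM in the HFCF pigs, without overlap and with a log2 fold change of 1.88 (SE 0.39, limma adjusted p 0.0133). The activin receptor ACVR2A and the bone morphogenetic protein (BMP) receptor BMPR1A had log2 fold changes of 0.78 and 0.81 (limma adjusted p 0.0335 and 0.0417), and these were not called under any of the 3 rescalings. ENG, the endothelial co-receptor endoglin and the most abundant of the list, stood at 25.2, 22.8 and 15.7 FPKM in the NC pigs and at 41.9, 30.8 and 21.9 FPKM in the HFCF pigs, a log2 fold change of 0.55 that was not called (limma adjusted p 0.182). The 3 calls fell to 1, ACVRL1, without NC pig 1, NC pig 3, HFCF pig 2 or HFCF pig 3. Of the 6 endothelial markers none was called by limma, beside 28.9% of all tested genes, and 2 had an unadjusted p under 0.05. The sum of the list ran from 93.2 to 188 FPKM in the NC pigs and from 85.3 to 223 FPKM in the HFCF pigs. The 2 with an unadjusted p under 0.05 were the receptors KDR and TEK, named after their values were seen. Their HFCF values all lay above their NC values, with ratios of group means of 2.04 and 2.42 (limma adjusted p 0.111 and 0.0541). The other markers PECAM1, CDH5, VWF and TIE1 overlapped between the groups, with log2 fold changes of -0.25, -0.17, -0.15 and 0.10. The part of endothelial transcripts in the rise of ACVRL1 was not tested.

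Of the 5 other SMADs 1 was called, 20% beside 28.9% of all tested genes (22.8% higher and 6.16% lower). SMAD5, a transducer of the BMP branch, was called higher, at 1.39, 2.29 and 1.59 FPKM in the NC pigs and 3.68, 3.51 and 3.03 FPKM in the HFCF pigs (log2 fold change 0.94, SE 0.24, limma adjusted p 0.0286). Like SMAD2 it was not called under the 3 rescalings, and it was also not called without NC pig 1, NC pig 3, HFCF pig 1 or HFCF pig 2 (adjusted p 0.0673 to 0.0884, limma). SMAD4, the partner of all receptor-regulated SMADs, had a log2 fold change of 0.30 (limma adjusted p 0.164), and the inhibitory SMAD6, the most abundant of the list, had -0.21 (adjusted p 0.567). Of the 4 ID genes, targets of the BMP branch, none was called by limma (0% beside 28.9% of all tested genes) and 1 had an unadjusted p under 0.05. That was ID3, the most abundant, at 1595, 1519 and 687 FPKM in the NC pigs and 440, 735 and 637 FPKM in the HFCF pigs (log2 fold change -1.01, limma adjusted p 0.0820), where NC pig 3 lay below HFCF pig 2. ID3 was called lower under all 3 rescalings (limma adjusted p 0.0261 to 0.0440) and without NC pig 3 (0.0205).

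The modulators of receptor and SMAD signalling held 18 tested genes, with 4 called lower and 1 higher. These 27.8% stand beside 28.9% of all tested genes (6.16% lower and 22.8% higher). SKIL, which encodes the SMAD corepressor SnoN, was the higher one, at 1.25, 2.41 and 2.04 FPKM in the NC pigs and 9.10, 7.09 and 6.71 FPKM in the HFCF pigs (log2 fold change 1.99, SE 0.28, limma adjusted p 0.00369). CREBBP, a histone acetyltransferase and SMAD coactivator, fell with little spread, from 26.3, 25.5 and 22.7 FPKM in the NC pigs to 12.3, 13.1 and 12.1 FPKM in the HFCF pigs (log2 fold change -0.98, SE 0.13, limma adjusted p 0.00333), while its paralogue EP300 had -0.18 (adjusted p 0.397). Both SKIL and CREBBP separated the groups without overlap. TGFB1I1 (Hic-5), a focal adhesion adaptor of smooth muscle, had a log2 fold change of -1.11 (limma adjusted p 0.0203), and PMEPA1, a TGF-beta-induced inhibitor that sequesters SMAD2 and SMAD3, had -0.57 (adjusted p 0.0304). The corepressor TGIF1, named after its values were seen, had -0.76 (limma adjusted p 0.0432), and the corepressor SKI, also named after its values were seen, had -0.49 (0.0791) and was called lower only under the 3 rescalings. The 5 calls fell to 2, SKIL and CREBBP, without NC pig 1 or NC pig 3 and to 3 without NC pig 2.

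Of 16 tested activins, BMPs and growth and differentiation factors with their antagonists, 2 were called higher and none lower. These 12.5% stand beside 28.9% of all tested genes (22.8% higher and 6.16% lower). GDF6, a ligand of the BMP class, stood at 0.102, 0.225 and 0.392 FPKM in the NC pigs and at 2.12, 4.57 and 1.06 FPKM in the HFCF pigs (log2 fold change 2.85, SE 0.57, limma adjusted p 0.0121). The BMP antagonist NOG stood at 0.242, 1.22 and 1.27 FPKM in the NC pigs and at 2.44, 3.84 and 4.27 FPKM in the HFCF pigs (log2 fold change 2.05, limma adjusted p 0.0338), and it was not called under the 3 rescalings or without HFCF pig 2 (0.0873) or HFCF pig 3 (0.0851). Both genes were scarce in the NC group, and every HFCF pig lay above every NC pig. FSTL1, the most abundant of the list, had a log2 fold change of 0.46 (limma adjusted p 0.412).

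The textbook induced genes of the SMAD2/3 branch moved in both directions. Of 18 tested, 5 were called lower and 3 higher, 44.4% beside 28.9% of all tested genes (6.16% lower and 22.8% higher). SNAI2, a transcription factor of mesenchymal cells, was lower in every HFCF pig and had a log2 fold change of -0.87 (limma adjusted p 0.0216). POSTN, the matrix protein periostin, was higher, at 9.27, 5.88 and 19.8 FPKM in the NC pigs and 51.5, 51.0 and 24.3 FPKM in the HFCF pigs (log2 fold change 1.95, limma adjusted p 0.0238). ADAM12, a metalloprotease, also rose, from 0.354, 0.394 and 0.239 FPKM in the NC pigs to 2.36, 1.50 and 1.15 FPKM in the HFCF pigs (log2 fold change 2.01, limma adjusted p 0.00744).

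Other calls of that list were the contractile genes ACTA2, the most abundant of the list, and CNN1, with log2 fold changes of -0.98 and -1.17 (limma adjusted p 0.0356 and 0.0255), KLF10 at -0.75 (0.0253) and the collagen cross-linking enzyme LOX at 0.85 (0.0425), where CNN1, KLF10 and LOX were named after their values were seen. LOX was not called under the 3 rescalings (limma adjusted p 0.0763 to 0.150). ACTA2, CNN1 and TAGLN are also among the 8 smooth muscle markers and COL1A1 among the fibroblast markers, so the list is not independent of those. The matrix genes COL1A1, COL3A1 and FN1 had log2 fold changes of -0.17, -0.18 and -0.04, and CCN2 had -0.39, none of them called. The 8 calls fell to 1, ADAM12, without NC pig 1 or NC pig 2, to 3 without HFCF pig 2 and to 4 without HFCF pig 1 or HFCF pig 3. The part of the lower smooth muscle marker level in these differences was not tested.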

How the data were processed

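The authors trimmed paired-end reads with cutadapt 1.9, checked them with FastQC and aligned them with HISAT2, per the submitters' processing notes, and assembled them with StringTie, per the methods. The deposited FPKM values of 30477 genes were used as the authors gave them, with 0.0001 FPKM read as 0. The pig genome build in the methods is older than that of the reference gene table, so no coordinates are printed, and no sequence is shown. FPKM hold no counts, and the depth per library is not given in the sources used here. Steps between low values gave relative depths of 1 to 1.37 (NC) and 1.03 to 1.07 (HFCF) with NC pig 1 at 1, and the spread among 3 pigs sets the precision. These depths are rough. The most common value was held by 86 of 2062 and 66 of 2098 genes in NC pigs 2 and 3. In HFCF pigs 1 to 3 it was held by 27 of 1404, 21 of 1277 and 31 of 1350 genes.

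Values were tested as log2(FPKM + 0.1) in 15384 genes with a mean of at least 0.1 FPKM, with limma 3.58.1 in R 4.3.3 (diet as sole factor, trended eBayes), and p was adjusted by the Benjamini-Hochberg method across these genes. On this scale the changes of low genes are understated. The study's RNA-Seq methods give thresholds and name R but no test, and its general statistics name Student's test for pairs of groups. Ratios within a library were compared by exact two-sided permutation tests (scipy 1.17.1). The fit was tested on simulated data. Replicate numbers are shared by the groups, but nothing in the sources pairs the pigs.

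The members and lists were chosen with earlier results of these data known. All 10 members are named. Of each other list, up to 4 called genes with the smallest adjusted p, the most abundant gene and defining genes that were not called are named, and genes outside this rule are marked in the text. FKBP1A was not found by symbol, and 1 gene that enters the counts is not reported here by itself. Alternative settings were a pseudocount of 1 or 0.01, a filter at a mean of 1 FPKM or none, scaling by median ratios, to TPM or by quantile normalization, eBayes with no trend, a replicate block, and the omission of each pig in turn.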

Additional observations from a re-analysis of the deposited data

How the results depend on the processing

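Over 15 alternatives the fall of TGFB3 kept its direction and its call in all of them, and TGFBR2 and SMAD2 kept their direction in all and their call in 7 and 9. Of the 10 genes, 3 were called as reported and 1 after quantile normalization, median-ratio scaling or conversion to TPM, and leaving out each pig gave 1 to 3, with 1 without NC pig 1 or NC pig 2. By the study's thresholds the count was 1 rather than 2 under the same 3 rescalings and 1 to 3 with each pig left out. The median log2 fold change of the 10 genes was -0.018 after median-ratio scaling and 0.055 after rescaling to TPM, against 0.31. Single fold changes that turned were those of TGFB1 and SMAD7 (both -0.018 after median-ratio scaling), TGFBR3 (-0.59 to 0.15 with each pig left out, positive without NC pig 2) and SMAD3 (-0.28 to 0.034, positive without HFCF pig 3), none of them called in any setting. Of the other pathway genes 26 were called, 17 without the filter, and 7 to 18 with each pig left out, the fewest without NC pig 1. Calls among the cell type markers numbered 21, where 28.9% of all tested genes were called. They included all 10 macrophage genes and 5 of the 8 smooth muscle genes. With each pig left out the marker calls numbered 13 to 25.

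With the replicate number as a block, 1 of the 10 genes and 11 of the other pathway genes were called, and the adjusted p (limma) of TGFBR2 and SMAD2 was 0.0630 and 0.0535. Deviations from the group means correlated at 0.0206, -0.0795 and -0.0724 between same-numbered pigs, and at -0.0694 to 0.127 between differently numbered pigs. With 3 pigs per group such values cannot exclude a pairing. The numbers were taken as names only because nothing in the sources pairs the pigs. The log2 difference of the ratio with each pig left out ran from 1.85 to 2.74 for TGFB1 to TGFB2 plus TGFB3, from -1.37 to -0.95 for SMAD3 to SMAD2, from 0.12 to 0.38 for SMAD7 to SMAD2 plus SMAD3, from 0.18 to 1.26 for TGFBI to the ligands, from -1.63 to -0.77 for TGFB3 to the smooth muscle markers, and from -0.57 to 2.34 for TGFBR1 to TGFBR2, which was also negative without HFCF pig 3 (-0.30). Rescaling to a common median or distribution removes the shift of 0.32 by construction, and fewer pigs leave less precision. Dropping the trend, changing the filter or adding the block leaves a fold change as it was, so these settings bear on calls and cannot turn a direction. The cause of the other differences was not tested. ITGB8 had 14 alternatives, since it was removed at a mean of at least 1 FPKM.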

Other observations

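The deposited annotation places 89 genes in the KEGG TGF-beta signaling pathway, a list taken up after seeing the data. It holds 8 of the 10 genes, all but TGFBR3 and TGFBI. Of the 81 others 72 were tested, and 9 were called higher and 5 lower (adjusted p under 0.05, limma). These 19.4% stand beside 28.9% of all tested genes (22.8% higher and 6.16% lower). The median log2 fold change of the 72 was 0.27.

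The genes whose profile was closest to that of TGFBR1 over the 6 pigs were MMRN1 (root-mean-square log2 difference 0.516), HIKESHI (0.709) and MIER1 (0.739). HIKESHI stood at 3.51, 0.566 and 0.480 FPKM in the NC pigs and at 4.07, 0.0678 and 4.15 FPKM in the HFCF pigs, and MIER1 at 2.05, 0.764 and 2.79 FPKM and at 7.10, 0.615 and 7.16 FPKM. In all 3 genes, as in TGFBR1, HFCF pig 2 was lower than the other HFCF pigs. They were picked for likeness to the TGFBR1 profile, which holds that low value, so sharing it is no separate result. These genes were named after their values were seen.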
